A study of Mus musculus with 6 samples.

Results

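Expression of p53 and 9 of its direct target genes was compared between mouse neural stem progenitor cells (NSPCs) given PTN and cells given PBS, the Control. The genes were taken by symbol from the deposited table: Trp53, which encodes p53, and Cdkn1a, Mdm2, Pmaip1, Perp, Bbc3, Bax, Ccng1, Zmat3 and Trp53inp1. All 10 were found among 22322 genes, each as 1 row, and all 10 were among the 13161 genes with enough counts to be tested. All cells were of wild-type genotype (WT in the labels) and were sampled at 24 h, with 3 RNA-seq libraries in each group. PTN, which the labels do not spell out, is read here as pleiotrophin, a secreted heparin-binding growth factor, and the series title places its addition in a conditioned medium. The sources used here give neither its amount nor the origin of the cells. Whether the replicates are separate cultures is not stated, so p-values reflect only library-to-library spread, part of which could be technical.

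p53 is a transcription factor that is held at a low level by MDM2, a ubiquitin ligase that marks it for degradation, and is stabilised after DNA damage and other stress. Its control therefore lies largely in the protein, so that its targets can change while its own transcript does not. Stabilised p53 binds response elements made of a pair of similar half-sites and raises genes for cell cycle arrest, cell death, DNA repair and its own restraint. In neural stem cells it is known for limiting self-renewal.

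Total expected counts lay between 19267764 and 25975205 in the PTN libraries and between 21268297 and 26341745 in the Control libraries. The 8 neural stem markers summed to 4258 to 5408 FPKM (fragments scaled to gene length and library depth) in PTN and 3467 to 4400 FPKM in Control. Vim and Fabp7 made up most of that sum. Of the 8, Vim rose (edgeR adjusted p = 0.0482), Msi1 lay wholly below Control without being called (log2 fold change -0.57, edgeR adjusted p = 0.0867), and in the other 6, among them Nes, Sox2 and Pax6, the groups overlapped. Microglial markers (5 genes) summed to at most 1.24 FPKM in PTN and 1.56 FPKM in Control, endothelial markers (3 genes) to at most 0.68 and 0.31 FPKM, and fibroblast markers (3 genes) to at most 0.80 and 0.74 FPKM. No marker was at 0 in all libraries. Astrocyte markers (4 genes) summed to 291 to 1105 FPKM in PTN and 2125 to 2203 FPKM in Control. Neuron markers (4 genes) summed to 8.09 to 13.6 FPKM in PTN and 15.4 to 18.0 FPKM in Control, a sum carried by Tubb3, while 3 of the 4 (Dcx, Rbfox3 and Snap25) had a positive log2 fold change and none was called by edgeR. Oligodendrocyte markers (4 genes) summed to 7.73 to 34.8 FPKM in PTN and 25.0 to 29.2 FPKM in Control. The part of these markers in the results below was not tested, and in bulk RNA fewer cells of a type and less RNA per cell cannot be told apart. The PTN 3 library stood apart in transcripts of 4 Y-linked genes, which summed to 7.96 CPM (counts scaled to library size) there, against 30.3 and 74.2 CPM in PTN 1 and PTN 2 and 49.3 to 102 CPM in the Control libraries.

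The sequence elements through which p53 is known to act can be seen in the promoters of some of these genes. RefSeq promoter windows on GRCm38.p6, each with 250 bases before and 50 bases after a transcription start, were matched by symbol for 6 of the 10 genes (Trp53, Cdkn1a, Mdm2, Bbc3, Bax and Ccng1). Perp, Pmaip1, Trp53inp1 and Zmat3 had no entry. Windows were searched for the p53 full-site consensus, 2 decameric half-sites with no gap between them, keeping the C and G of each half-site's core and allowing at most 3 of the 20 bases to differ. The consensus reads alike on both strands, so each match holds for both. A match was found in windows of 4 of the 6 genes, and in 1.63% of all 27025 genes in that table. With at most 1 base differing, 2 of the 6 genes held a match, against 0.0814% of all genes. A match is a description of the letters and was not tested for binding. The windows with a match are printed from 5′ to 3′ on the strand of the gene, with the matched site in capitals.
Cdkn1a: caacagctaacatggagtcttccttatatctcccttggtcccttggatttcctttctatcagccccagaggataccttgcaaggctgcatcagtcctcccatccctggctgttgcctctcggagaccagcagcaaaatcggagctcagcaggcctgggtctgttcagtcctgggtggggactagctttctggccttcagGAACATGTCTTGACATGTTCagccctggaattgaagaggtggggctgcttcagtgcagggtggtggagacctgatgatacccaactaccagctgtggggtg
Ccng1: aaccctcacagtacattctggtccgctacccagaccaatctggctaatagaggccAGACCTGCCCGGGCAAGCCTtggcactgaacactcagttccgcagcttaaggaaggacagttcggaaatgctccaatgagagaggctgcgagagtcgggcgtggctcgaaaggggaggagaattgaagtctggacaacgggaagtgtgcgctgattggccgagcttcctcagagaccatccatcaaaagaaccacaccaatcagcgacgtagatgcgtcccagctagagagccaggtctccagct
Bbc3: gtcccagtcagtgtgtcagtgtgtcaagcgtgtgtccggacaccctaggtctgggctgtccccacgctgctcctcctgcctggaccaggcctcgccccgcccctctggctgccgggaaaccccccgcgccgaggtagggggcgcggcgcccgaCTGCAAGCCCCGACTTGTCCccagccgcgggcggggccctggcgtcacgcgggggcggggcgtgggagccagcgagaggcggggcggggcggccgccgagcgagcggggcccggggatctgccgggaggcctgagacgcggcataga
Trp53: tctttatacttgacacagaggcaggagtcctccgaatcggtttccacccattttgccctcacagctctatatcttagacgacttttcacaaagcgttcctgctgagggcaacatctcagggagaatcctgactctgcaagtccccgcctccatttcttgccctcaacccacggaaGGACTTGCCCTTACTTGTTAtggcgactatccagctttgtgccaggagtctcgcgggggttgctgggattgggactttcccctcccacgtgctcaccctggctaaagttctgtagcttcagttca
The Cdkn1a window lies at chr17:29090729-29091028 on the plus strand and belongs to the more upstream of 2 annotated starts, and its site ends 32 bases before that start with 1 of 20 bases differing. The Ccng1 window lies at chr11:40755237-40755536 on the minus strand, and its site ends 176 bases before the start with 1 base differing. The Bbc3 window, at chr7:16309333-16309632 on the plus strand, holds a site with 3 bases differing that ends 78 bases before the start. The Trp53 window, at chr11:69580109-69580408 on the plus strand, holds a site with 3 bases differing that ends 56 bases before the start. No site by this definition was in the windows of Mdm2 and Bax, the second Cdkn1a window or 2 further Bbc3 windows, which says only that these letters are absent there. Among the 4 genes with a matched site, 1 (Bbc3) rose after PTN and 3 did not pass the test, as described below.

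Which p53 genes differ between PTN and Control cells is the comparison that the design implies. Pmaip1, Perp and Bbc3, all known for roles in cell death, rose after PTN by 3.25-fold, 3.39-fold and 1.79-fold. Trp53 itself and Cdkn1a, the cell cycle arrest gene, were at 0.959-fold and 1.11-fold of Control and did not pass the test. Nor did Bax, also a cell death gene, at 1.02-fold of Control, so the calls did not divide by these roles. Of the 10 genes, 3 were called higher and 0 lower. Calls were made by edgeR's quasi-likelihood test, taking an adjusted p below 0.05 after Benjamini-Hochberg correction over all 13161 genes. In the background, 4.93% of all tested genes were called higher and 3.06% lower, or 7.99% in either direction. At an unadjusted p under 0.05 there were 6 of the 10 genes, all with higher means in PTN, where 27% of all tested genes were under that p in either direction. A positive log2 fold change was found in 9 of 10, Bax only at 0.02, against 52.5% of all tested genes. In 5 of the 10 genes all PTN values lay above all Control values, and in 0 below, where 15.7% and 17.1% of all tested genes did so (32.9% in either direction). The median log2 fold change of the 10 genes was 0.65, against 0.03 over all tested genes. The 10 genes and the lists below were chosen with earlier results of these data known. Their counts beside the background therefore describe the lists and do not test them. By DESeq2's Wald test 5 of the 10 genes were called, Mdm2 and Trp53inp1 being the additional ones, with 14.5% of all genes called.

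**Figure D1:**
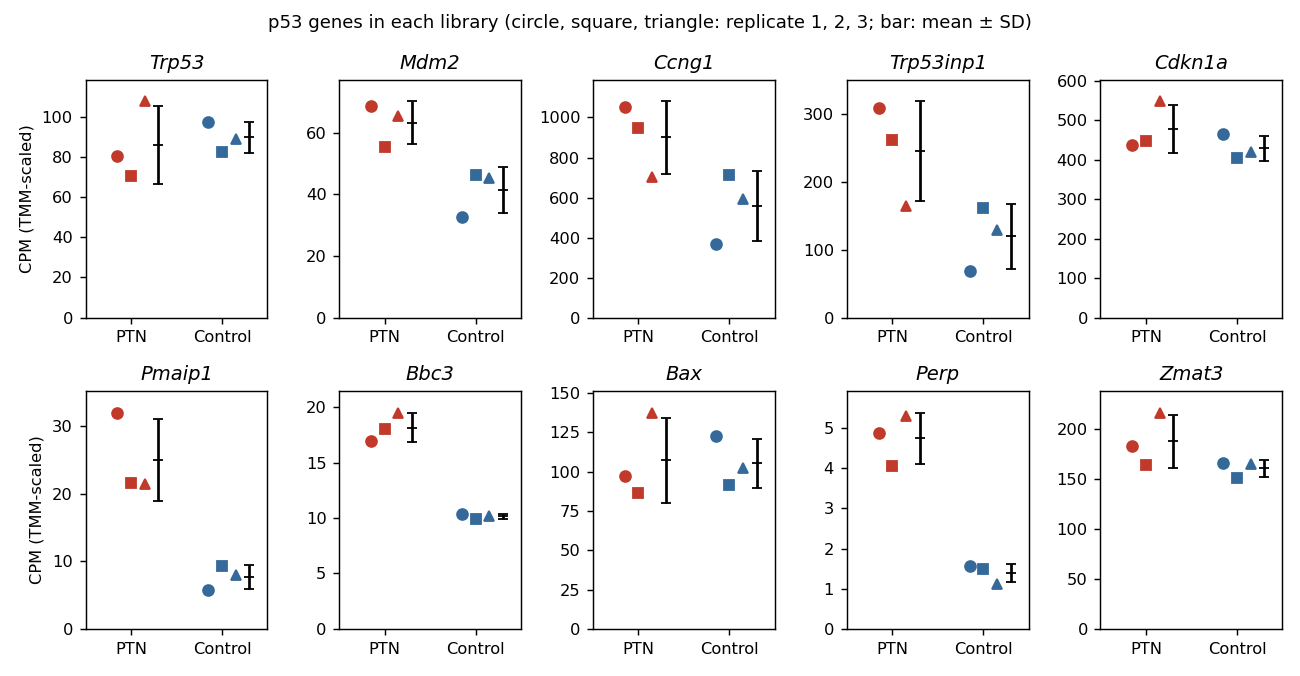
CPM, scaled between libraries by the trimmed mean of M-values (TMM), of the 10 p53 genes in the 3 PTN and 3 Control libraries, with the mean ± SD as a bar beside the points of each group. The PTN points of Pmaip1, Perp, Bbc3, Mdm2 and Trp53inp1 lie wholly above the Control points, and the groups overlap in the other genes.

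Trp53 had 80.4, 70.4 and 108 CPM in PTN 1, PTN 2 and PTN 3, against 97.8, 82.7 and 89.3 CPM in Control 1, Control 2 and Control 3. The groups overlapped, with both the highest and the lowest value in PTN. The means were 86.3 ± 19.4 CPM in PTN and 89.9 ± 7.54 CPM in Control (SD, n = 3 each), a log2 difference of -0.06 ± 0.18 (SE; adjusted p = 0.843 by edgeR). Its 95% confidence interval reached from 0.72-fold to 1.28-fold. The sign turned without PTN 2 (log2 fold change 0.07, edgeR adjusted p = 0.837). The genes whose profile over the 6 libraries was nearest to that of Trp53, among 9430 tested genes of at least 10 CPM, were Adrm1, Alg9 and Actg1, with root mean square differences of 0.0275, 0.0304 and 0.0307 on centred log2 CPM. Adrm1 encodes a ubiquitin receptor of the proteasome, Alg9 a mannosyltransferase and Actg1 a cytoplasmic actin.

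Mdm2, Ccng1 and Trp53inp1 encode proteins that act back on p53. Mdm2, the ubiquitin ligase gene, had 68.7, 55.4 and 65.5 CPM in PTN 1, PTN 2 and PTN 3, against 32.6, 46.2 and 45.3 CPM in Control 1, Control 2 and Control 3. Every PTN value lay above every Control value, the lowest PTN value being 1.20 times the highest Control value. The log2 fold change was 0.61 ± 0.18 (SE, n = 3 each), with a 95% confidence interval from 1.16-fold to 2.02-fold, and was not called (edgeR adjusted p = 0.0697). Leaving out single libraries gave log2 fold changes from 0.44, without Control 1, to 0.70, without PTN 2.

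Ccng1 encodes cyclin G1, which recruits a phosphatase to MDM2. It had 1054, 946 and 702 CPM in PTN 1, PTN 2 and PTN 3, against 370, 713 and 594 CPM in Control 1, Control 2 and Control 3. The groups overlapped by a narrow margin, PTN 3 lying just under Control 2. The log2 fold change of 0.69 ± 0.26 (SE) was not called (edgeR adjusted p = 0.134). Trp53inp1, whose product promotes p53 phosphorylation and autophagy, had 310, 262 and 165 CPM in PTN 1, PTN 2 and PTN 3, against 68.2, 162 and 129 CPM in Control 1, Control 2 and Control 3. The groups did not overlap, but PTN 3 was only 1.02 times Control 2. Trp53inp1 was 2.05-fold higher on average, at 246 ± 73.6 CPM in PTN and 120 ± 47.8 CPM in Control (SD, n = 3 each), and was not called (1.04 ± 0.33 SE in log2 terms; adjusted p = 0.0906 by edgeR). Without PTN 3 it was called (log2 fold change 1.25, edgeR adjusted p = 0.0289), and without Control 1 its log2 fold change was 0.73.

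Cdkn1a encodes p21, the inhibitor of cyclin-dependent kinases through which p53 arrests the cell cycle. It had 437, 446 and 548 CPM in PTN 1, PTN 2 and PTN 3, against 465, 403 and 418 CPM in Control 1, Control 2 and Control 3. The groups overlapped, Control 1 lying above 2 of the PTN values. The means were 477 ± 61.2 CPM in PTN and 429 ± 32.1 CPM in Control (SD, n = 3 each), which gave a log2 difference of 0.15 ± 0.15 (SE; adjusted p = 0.518 by edgeR). The 95% confidence interval of 0.876-fold to 1.41-fold contains no change as large as that of Pmaip1 or Perp. In GENCODE M21 a gene on the opposite strand overlaps Cdkn1a, and whether counting used strand is not stated, so reads of that gene cannot be told apart here. The genes nearest to Cdkn1a in profile were Ctnnbl1, Nudcd3 and Nfe2l1, at root mean square differences of 0.0295, 0.0361 and 0.0367 over the 6 libraries.

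Pmaip1 encodes Noxa and Bbc3 encodes Puma, both BH3-only proteins that bind survival members of the BCL2 family and so promote release of cytochrome c. Pmaip1 had 32.0, 21.6 and 21.5 CPM in PTN 1, PTN 2 and PTN 3, against 5.83, 9.33 and 7.96 CPM in Control 1, Control 2 and Control 3. The groups were well apart, the lowest PTN value being 2.30 times the highest Control value. Its mean was 25.0 ± 6.05 CPM in PTN and 7.70 ± 1.76 CPM in Control (SD, n = 3 each), a log2 difference of 1.70 ± 0.24 (SE; adjusted p = 0.00638 by edgeR). The change was called in each of the 6 fits that left out 1 library, with log2 fold changes from 1.48 to 1.82 and edgeR adjusted p from 0.00389 to 0.0324.

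Bbc3 had 16.9, 18.0 and 19.5 CPM in PTN 1, PTN 2 and PTN 3, against 10.4, 9.94 and 10.2 CPM in Control 1, Control 2 and Control 3. Its values were tight within each group, and the lowest PTN value was 1.63 times the highest Control value. The means were 18.1 ± 1.30 CPM in PTN and 10.1 ± 0.208 CPM in Control (SD, n = 3 each), which gave a log2 difference of 0.84 ± 0.16 (SE; adjusted p = 0.0165 by edgeR). The edgeR adjusted p rose to 0.0642, 0.0915 and 0.115 without Control 1, Control 2 and Control 3, while the log2 fold change stayed between 0.78 and 0.89 over all 6 fits that left out 1 library. In FPKM the Control values were less tight, at 11.8 ± 1.24 FPKM in PTN and 6.60 ± 0.951 FPKM in Control. The gene length that counts and FPKM imply together was 1.55, 1.61 and 1.48 kb in PTN 1, PTN 2 and PTN 3, against 1.37, 1.74 and 1.56 kb in Control 1, Control 2 and Control 3, while that of Ccng1 was 3.51 kb in every library. The length assigned to Bbc3 thus varied within the Control group over a wider range than in PTN, and the ranges overlapped.

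Bax encodes the pore-forming effector that acts downstream of the BH3-only proteins at the mitochondrial membrane. It had 97.4, 86.4 and 137 CPM in PTN 1, PTN 2 and PTN 3, against 122, 91.6 and 102 CPM in Control 1, Control 2 and Control 3. The groups overlapped, with the highest and lowest values both in PTN, and the log2 fold change was 0.02 ± 0.20 (SE; adjusted p = 0.946 by edgeR). Its 95% confidence interval reached from 0.739-fold to 1.40-fold, and the sign turned with upper-quartile scaling and without PTN 3, Control 2 or Control 3. Its expected counts were in part fractional, alone among the 10 genes, and in GENCODE M21 it overlaps Gm45808 on the same strand, which had 6.90 to 16.2 counts per library.

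Perp encodes a membrane protein of desmosomes that also promotes p53-dependent cell death. It was the gene of lowest level among the 10, with 126, 91 and 102 counts in the PTN libraries 1 to 3, against 37, 39 and 24 counts in the Control libraries 1 to 3. These stood for 4.89, 4.06 and 5.31 CPM in PTN and 1.56, 1.49 and 1.12 CPM in Control, in the same order of libraries. All PTN values were at least 2.59 times every Control value. The log2 fold change of 1.76 ± 0.26 (SE, n = 3 each; adjusted p = 0.00672 by edgeR) was called in each of the 6 fits that left out 1 library, with edgeR adjusted p from 0.00882 to 0.0461.

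Zmat3, which encodes an RNA-binding zinc finger protein of splicing control, had 183, 164 and 216 CPM in PTN 1, PTN 2 and PTN 3, against 166, 151 and 165 CPM in Control 1, Control 2 and Control 3. The groups overlapped only through PTN 2, which lay under Control 1 and Control 3. The log2 fold change of 0.22 ± 0.15 (SE) was not called (edgeR adjusted p = 0.353), and was -0.07 when a trend with gene length was removed from each library (edgeR adjusted p = 0.844).

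**Figure D2:**
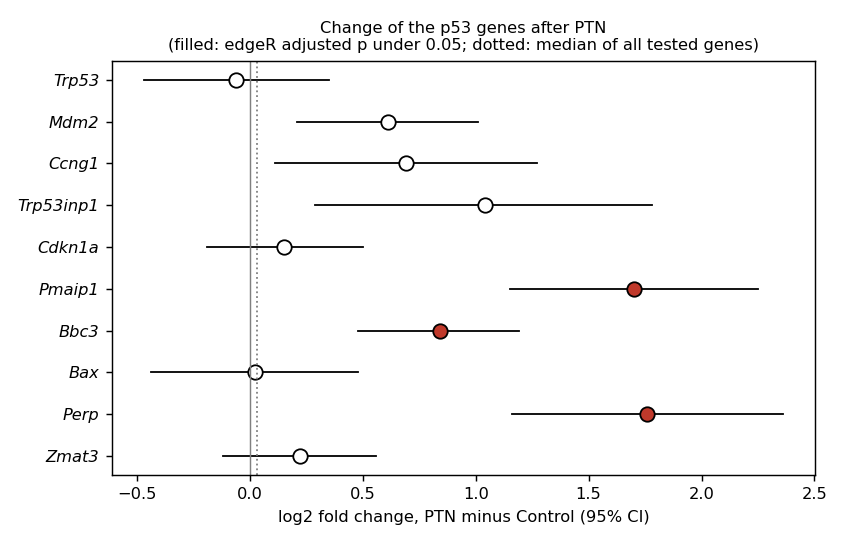
Log2 fold change, PTN minus Control, of the 10 p53 genes with 95% confidence intervals from the edgeR fit, filled where the adjusted p was under 0.05. Pmaip1, Perp and Bbc3 are filled, at 1.70, 1.76 and 0.84, and the intervals of Trp53, Cdkn1a, Bax and Zmat3 include 0.

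The levels of the 10 genes per length spanned a wide range. In FPKM, Cdkn1a was the highest at 273 ± 39.8 in PTN and 242 ± 19.8 in Control (SD, n = 3 each), followed by Ccng1 at 256 ± 50.8 in PTN and 159 ± 48.8 in Control. Cdkn1a and Ccng1 overlapped in PTN but not in Control, where instead Ccng1 overlapped with Bax. Bax came next, at 116 ± 29.1 FPKM in PTN and 116 ± 18.1 FPKM in Control. Trp53 had 48.4 ± 10.9 FPKM in PTN and 50.7 ± 4.56 FPKM in Control, and Trp53inp1 45.4 ± 13.5 FPKM in PTN and 22.2 ± 8.72 FPKM in Control. Those 2 genes overlapped in PTN and not in Control. Zmat3 followed at 25.4 ± 2.63 FPKM in PTN and 22.0 ± 1.06 FPKM in Control, overlapping with Trp53inp1 in Control and not in PTN, and Mdm2 at 20.4 ± 2.11 FPKM in PTN and 13.4 ± 2.41 FPKM in Control. The 3 genes that rose were the 3 lowest of the 10 in both groups. Bbc3 came above Pmaip1, with overlap in PTN and none in Control, Pmaip1 being at 9.63 ± 2.22 FPKM in PTN and 2.92 ± 0.558 FPKM in Control, and Perp last at 2.43 ± 0.314 FPKM in PTN and 0.717 ± 0.121 FPKM in Control.

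Ratios between genes of 1 library do not depend on how libraries are scaled. Per 100 FPKM of Cdkn1a there were 4.95, 3.49 and 2.47 FPKM of Pmaip1 in the PTN libraries 1 to 3, against 0.879, 1.52 and 1.28 in the Control libraries 1 to 3. The Pmaip1 share was thus above every Control value in all PTN libraries, though PTN 3 was nearer to Control than PTN 1 was. Per 100 FPKM of Bax there were 10.4, 12.04 and 8.87 FPKM of Bbc3 in PTN, against 5.59, 5.69 and 5.77 in Control. Per 100 FPKM of Trp53 there were 49.2, 45.3 and 34.8 FPKM of Mdm2 in PTN, against 19.2, 32.1 and 29.1 in Control. Per 100 FPKM of Ccng1 there were 19.1, 18.0 and 15.3 FPKM of Trp53inp1 in PTN, against 11.99, 14.8 and 14.1 in Control. In all 4 ratios the groups did not overlap. A two-sided exact permutation test of the log2 ratios gave p = 0.1 for each (adjusted p = 0.1 over the 4 ratios). That is the smallest p that 3 against 3 libraries allow. Each ratio sets a gene whose PTN values lay wholly above Control over a gene whose groups overlapped. The separation therefore largely follows from the choice of pairs and is no further support. Other pairs of genes were not examined.

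Within each group the 10 genes did not vary together. Relative to the mean of its own group in log2 CPM, Trp53inp1 stood at 0.38, 0.14 and -0.52 in PTN 1, PTN 2 and PTN 3 and at -0.72, 0.53 and 0.20 in Control 1, Control 2 and Control 3. Ccng1 stood at 0.25, 0.09 and -0.34 in PTN and at -0.54, 0.40 and 0.14 in Control. Both were thus lowest in PTN 3 and in Control 1. Bax went the other way, at -0.11, -0.28 and 0.39 in PTN and 0.23, -0.19 and -0.04 in Control, as did Trp53 at -0.08, -0.27 and 0.35 in PTN and 0.12, -0.12 and -0.01 in Control. PTN 3 and Control 1 were also the libraries with the smallest share of mitochondrial DNA transcripts in their group, which made up 8.12, 8.10 and 3.97 percent of the counts in PTN 1, PTN 2 and PTN 3 and 4.47, 7.47 and 5.76 percent in Control 1, Control 2 and Control 3. When that share was added to the edgeR model as a covariate, an alternative chosen after seeing the data, 6 of the 10 genes were called and 18.3% of all genes. The 3 additional genes were Mdm2 (edgeR adjusted p = 0.0408), Trp53inp1 (0.0201) and Ccng1 (0.0427), with log2 fold changes of 0.59, 0.86 and 0.57. Bbc3 deviated from its group mean by at most 0.11 in any library.

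**Figure D3:**
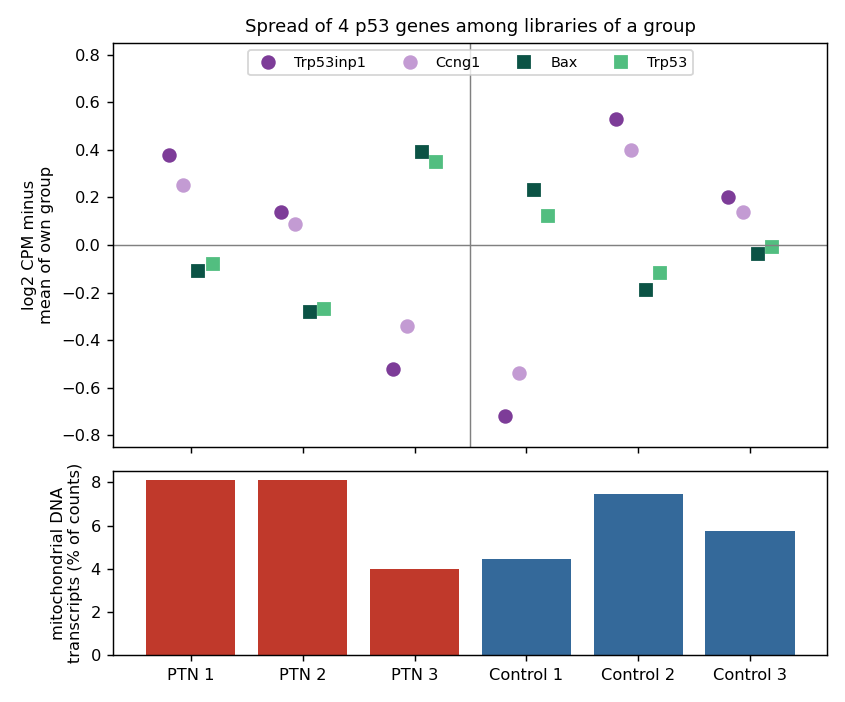
Upper panel, log2 CPM of Trp53inp1, Ccng1, Bax and Trp53 in each library minus the mean of its own group; lower panel, percent of counts from mitochondrial DNA transcripts. In PTN 3 and Control 1 the circles of Trp53inp1 and Ccng1 lie below 0 and the squares of Bax and Trp53 above it, and the mitochondrial share is 3.97 and 4.47 percent.

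Further genes of the pathway were described from lists drawn up by known function. Of 36 tested further p53 targets 2 rose and 1 fell, or 3 in all, beside 7.99% of all tested genes called in either direction. At an unadjusted p under 0.05 there were 10 of the 36 (27.8%), near the 27% of all tested genes. The median log2 fold change was 0.20, against 0.03 over all genes, and 26 of the 36 had a positive value, where 52.5% of all genes did. Eda2r, a gene of the TNF receptor family, rose 2.00-fold (edgeR adjusted p = 0.0372). It had 122, 110 and 85.5 CPM in PTN 1, PTN 2 and PTN 3, against 36.2, 66.0 and 56.7 CPM in Control 1, Control 2 and Control 3. Zfp365, a gene of replication stress tolerance, had 88.1, 71.0 and 89.2 CPM in PTN, against 41.5, 49.7 and 54.3 CPM in Control, a 1.71-fold rise (edgeR adjusted p = 0.0259, but 0.0528 with the length trend removed). Ddit4, which encodes an inhibitor of mTORC1 that is also raised by hypoxia and glucocorticoids, was 1.91-fold lower, at 63.8, 60.4 and 49.2 CPM in PTN, against 121, 109 and 101 CPM in Control (edgeR adjusted p = 0.0102). The fall of Ddit4 was called in each fit that left out 1 library, while the rise of Eda2r reached an edgeR adjusted p of 0.120 and that of Zfp365 one of 0.0976. Over those 6 fits 0 to 3 of these targets were called higher and 1 to 3 lower, while 2.48% to 16.3% of all tested genes were called in either direction. With the mitochondrial share as a covariate 7 of the 36 were called higher and 2 lower, beside 18.3% of all genes called. The death receptor genes Fas and Tnfrsf10b, picked out after their values were seen, were 1.66-fold and 1.68-fold higher without overlap between the groups, but neither was called (edgeR adjusted p = 0.0652 for both).

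Of 21 tested regulators and relatives of p53, 0 were called by edgeR, with 2 at an unadjusted p under 0.05, and DESeq2's Wald test called 1 higher and 1 lower. Over all tested genes the shares were 7.99% called by edgeR, 27% at that unadjusted p and 14.5% called by DESeq2, so none of the 3 counts exceeded the background. The gene of smallest p was Chek2, a DNA damage kinase that phosphorylates p53, at 16.5, 13.1 and 17.3 CPM in PTN 1, PTN 2 and PTN 3, against 24.5, 24.0 and 21.3 CPM in Control 1, Control 2 and Control 3. All its PTN values lay below its Control values (-0.58 ± 0.17 SE in log2 terms; adjusted p = 0.0745 by edgeR, and 0.0441 without PTN 3). The other gene under that unadjusted p, Cdkn2a, was 1.67-fold higher and not called (edgeR adjusted p = 0.0878). Its lowest PTN value was 1.02 times its highest Control value. With the length trend removed, and without PTN 2, edgeR called 1 gene of the list higher. In those fits 6.96% and 8.36% of all tested genes were called in either direction. The median log2 fold change of the list was 0.22, against 0.03 over all tested genes. A positive value was found in 17 of the 21, where 52.5% of all tested genes had one. A lean to positive values was thus not particular to the p53 targets.

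Genes of mitosis that are known to be lowered by p53 through p21 and the DREAM repressor complex went down in part. Of 12 tested members 6 fell and 0 rose, where 3.06% of all tested genes were called lower, and the median log2 fold change was -0.65. The phosphatase gene Cdc25c had 12.8, 12.1 and 12.1 CPM in PTN 1, PTN 2 and PTN 3, against 21.2, 23.3 and 22.2 CPM in Control 1, Control 2 and Control 3, and was 1.80-fold lower (edgeR adjusted p = 0.0125). The cyclin B genes Ccnb2 and Ccnb1 were 1.78-fold and 1.60-fold lower (edgeR adjusted p = 0.0247 and 0.0425), the mitotic kinase gene Plk1 1.87-fold (0.0277), the anaphase activator gene Cdc20 1.84-fold (0.0441) and the survivin gene Birc5 1.54-fold (0.0449, but 0.0882 with the length trend removed). In all 6 of them, which were picked by their calls, the groups did not overlap. Over the whole list 7 of the 12 lay wholly below Control and 0 wholly above, where 17.1% and 15.7% of all tested genes did so. The proliferation gene Mki67, picked out after its values were seen, was at 1.03-fold of Control and was not called (edgeR adjusted p = 0.959). Its values were 521, 283 and 125 CPM in PTN, against 174, 363 and 366 CPM in Control. With a log2 fold change of 0.04 ± 0.47 (SE), they cannot tell an unchanged level from a rise or a fall. Of the 6 members not called, 4 had a negative log2 fold change and 2 a positive one. Among them Cdk1, also picked out afterwards, lay wholly below Control (log2 fold change -0.77, edgeR adjusted p = 0.0606). Members called lower numbered 1, 3 and 7 without PTN 1, PTN 2 and PTN 3 and 1, 1 and 0 without Control 1, Control 2 and Control 3. In those fits, in the same order, 3.86%, 8.36%, 16.3%, 2.61%, 3.03% and 2.48% of all genes were called, counting either direction.

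**Figure D4:**
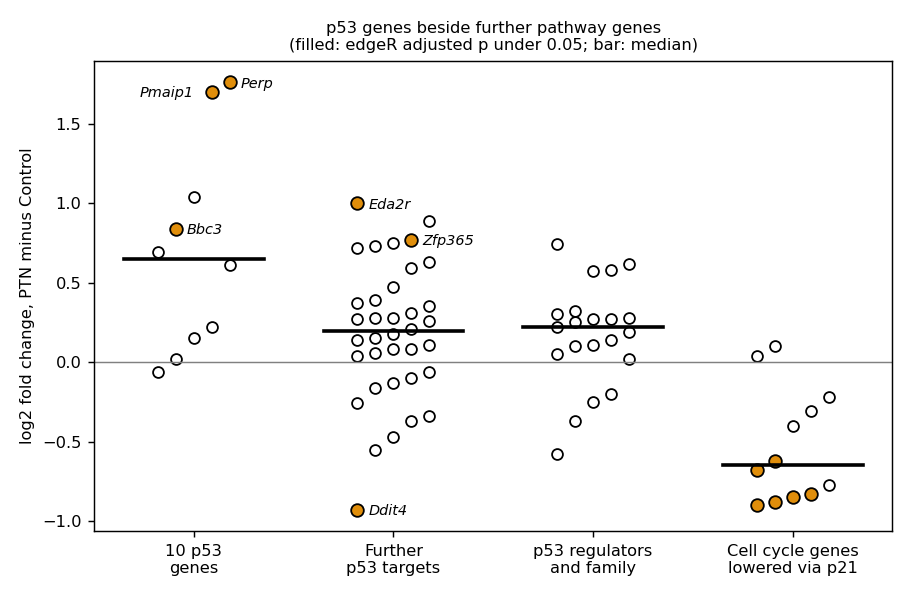
Log2 fold change, PTN minus Control, of each tested gene in 4 lists, with the median as a bar and genes with an edgeR adjusted p under 0.05 filled. Medians were 0.65 for the 10 p53 genes, 0.20 for further p53 targets, 0.22 for regulators and family, and -0.65 for cell cycle genes known to be lowered via p21.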

How the data were processed

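The deposited table lists 22322 genes, and each library has a column of expected counts and a column of FPKM. The expected counts made by the authors are estimated fragments or reads per gene, not scaled between libraries, and the FPKM values, as deposited, are scaled to gene length and library depth, per the file headers. Per the labels' protocols, RNA came from a column kit and libraries from a SMARTER mRNA kit. The sources used here name no aligner, counting program, build or strand setting. Columns were matched to libraries by group letter and replicate number.

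Expected counts were rounded, genes kept by filterByExpr (13161, or 59%), and libraries scaled by TMM. The test was edgeR's quasi-likelihood F test (edgeR 4.0.16, R 4.3.3), PTN minus Control, adjusted by Benjamini-Hochberg over all tested genes and called under 0.05. The SE is the log2 fold change divided by the square root of F. At these depths 1 CPM stands for 19.2 to 26.2 counts. Chi-square per degree of freedom between 2 libraries was at least 12.4, so none was a repeat of another. By that measure PTN 3 was at 68.9, 88.4 and 105 from Control 3, Control 1 and Control 2, and at 98.6 and 107 from PTN 1 and PTN 2. Scripts were tested on simulated counts. The p53 genes and all lists were chosen with earlier results of these data known. Named genes were the 10 p53 genes, up to 6 called genes per direction of each further list (or that of smallest p), and the 3 genes nearest in profile to Trp53 and to Cdkn1a. Fas, Tnfrsf10b, Cdkn2a, Mki67, Cdk1 and cell type markers were named beyond that rule. Trp53cor1, on the list of further targets, was not analysed here, and Trp63 was too low to test. Alternatives included DESeq2 1.42.0 and limma 3.58.1.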

Additional observations from a re-analysis of the deposited data

How the results depend on the processing

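The 3 calls among the p53 genes (Pmaip1, Perp, Bbc3) were kept with DESeq2 size factors, upper-quartile scaling, library totals, limma-voom, no filter, a minimum of 1 CPM in 3 libraries and removal of a length trend. All tested genes called numbered 1052, and 1908 by DESeq2's Wald test, 1913 at an adjusted p under 0.1 and 2409 with the mitochondrial share as a covariate, where 5, 5 and 6 of the 10 p53 genes were called, all higher. Leaving out 1 library gave from 331 genes called, without Control 3, to 2177, without PTN 3. Over all such fits 2 to 4 p53 genes were called higher and 0 lower. Whether the replicate numbers pair the libraries is not stated. Deviations of same-numbered libraries correlated at -0.506, 0.362 and -0.00494 across genes, and 2 of 6 libraries correlated best with their own number. These values cannot exclude a pairing, since deviations within groups of 3 also carry other spread. With the replicate number as a block 726 genes and 2 p53 genes were called, Bbc3 having an edgeR adjusted p of 0.0592. The block also took the mitotic genes called lower to 3, with 0.051 for Cdc25c, 0.0969 for Ccnb1 and 0.116 for Birc5, and Zfp365 to 0.0575.

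Signs turned for small, uncalled changes. Trp53 was 0.01 with the mitochondrial covariate and -0.25 to 0.07 over the fits without 1 library, Bax -0.02 with upper-quartile scaling and -0.20 to 0.16 without 1 library, and Zmat3 -0.07 with the length trend removed. Among genes of like profile, Adrm1 ranged over -0.28 to 0.04, Alg9 over -0.26 to 0.03, Actg1 over -0.23 to 0.11 and Nudcd3 over -0.01 to 0.20 without 1 library, and with the mitochondrial covariate Alg9 was 0.00 and Actg1 0.05. The cause was not tested. Depth limits Perp most, with 24 counts in 1 Control library.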
